A study of Mus musculus with 8 samples.

Results

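The 40 genes described here encode the contractile filaments, the calcium machinery and the muscle-specific enzymes and regulators of skeletal muscle, and they were read from an RNA-seq table of the mouse lower incisor. They are 40 of the 23358 rows of that table, and each gene was found by its name. The list was put together with the levels of these genes in the same libraries known, so the levels and fold changes of the 40 genes below are a description and carry no test of their own. The 8 libraries were made from the cervical loop (CL), the tissue at the growing end of the incisor. *Med1* cKO mice carry a floxed *Med1*, which encodes a subunit of the Mediator complex, that is cut by Cre recombinase under the *Krt14* promoter, a promoter active in epithelial cells and not in muscle fibres. Ctrl mice are their littermates without Cre. All mice were of C57BL/6 background and, by the study's methods, 4 weeks old and the sexes were not distinguished. For each genotype there are 2 libraries of the CL head (CLH), the stem cell end, and 2 of the CL tail (CLT), which holds their progeny. By the study's notes the RNA-seq drew on 2 litters, and CL tissues of several incisors were pooled in each group, so a library is a pool and does not stand for 1 animal. No source used here ties a replicate number to a litter, and the spread given is that between libraries, which may in part be technical.

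Skeletal muscle fibres contract when myosin heavy chains of the thick filament pull on actin of the thin filament, inside a repeating unit called the sarcomere that is bounded by Z-discs. Calcium released through the ryanodine receptor binds troponin C and so frees the thin filament, and a calcium pump returns it to its store. Fast and slow fibres use different genes for the same part of this machine, developing muscle uses further myosins, and myoblasts are committed to the lineage by the myogenic regulatory factors. The dental epithelium is not known as a source of these proteins. The labels call all 8 samples dental epithelial cells, and the lists below treat each gene by its part in muscle.

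The promoters of these genes are shown because the genes moved together across the libraries, and because many muscle promoters carry an E-box, the element bound by the myogenic regulatory factors. RefSeq (GRCm38.p6) gave a promoter for 30 of the 40 genes, and the 250 bases before the transcript start were searched on both strands for the E-box CANNTG, its form CAGCTG, the TATA element TATAAA, the MEF2 site and the CArG box. Capitals mark a match to any of these elements, CAGCTG being one of the forms of CANNTG. The 120 bases up to the start are printed for the skeletal actin, the leading fast myosin and its regulatory light chain, a slow troponin, a slow-fibre Z-disc protein and myogenin, which were highest in CLT libraries labelled cKO, and for both slow troponins that did not follow them.
*Acta1*, chr8:123894776-123894895, minus strand: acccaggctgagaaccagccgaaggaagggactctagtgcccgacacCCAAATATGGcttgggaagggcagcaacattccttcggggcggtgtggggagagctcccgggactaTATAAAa
*Myh4*, chr11:67237692-67237811, plus strand: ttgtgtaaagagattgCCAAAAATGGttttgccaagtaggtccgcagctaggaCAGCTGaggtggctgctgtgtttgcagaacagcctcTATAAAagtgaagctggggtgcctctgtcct
*Mylpf*, chr7:127211488-127211607, plus strand: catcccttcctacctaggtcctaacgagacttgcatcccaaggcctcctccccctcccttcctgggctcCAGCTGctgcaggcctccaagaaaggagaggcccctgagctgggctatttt
*Tnni1*, chr1:135799301-135799420, plus strand: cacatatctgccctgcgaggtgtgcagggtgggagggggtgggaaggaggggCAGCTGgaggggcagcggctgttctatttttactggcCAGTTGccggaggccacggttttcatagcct
*Myoz2*, chr3:123034988-123035107, minus strand: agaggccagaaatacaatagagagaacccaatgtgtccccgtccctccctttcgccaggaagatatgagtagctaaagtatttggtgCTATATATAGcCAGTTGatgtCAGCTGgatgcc
*Myog*, chr1:134289884-134290003, plus strand: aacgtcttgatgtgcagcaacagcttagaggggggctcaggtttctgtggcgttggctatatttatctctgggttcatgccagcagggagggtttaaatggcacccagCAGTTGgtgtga
*Tnnt1*, chr7:4515976-4516095, minus strand: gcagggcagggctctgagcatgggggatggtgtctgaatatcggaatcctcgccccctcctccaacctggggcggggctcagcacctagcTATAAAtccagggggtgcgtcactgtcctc
*Tnnc1*, chr14:31208192-31208311, plus strand: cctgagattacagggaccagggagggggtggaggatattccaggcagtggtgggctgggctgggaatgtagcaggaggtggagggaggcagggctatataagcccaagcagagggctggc
In the 250 bases, CAGCTG was found in 14 of the 30 promoters, or 46.7%, against 12.3% of all 15711 promoters matched to the table. CANNTG was found in 25 of the 30, or 83.3%, against 62.4% of all promoters, so this looser element is common everywhere. The MEF2 site was found in 6 of the 30 (20%, against 1.67% of all), the CArG box in 3 (10%, against 1.36%) and TATAAA in 7 (23.3%, against 12%). The slow genes did not lack the E-box, with CANNTG in all 6 slow-fibre promoters and CAGCTG in 3 of them, and CAGCTG in 5 of 10 fast-fibre promoters. The slow genes with CAGCTG were *Mybpc1*, *Tnni1* and *Myoz2*, and *Myh7*, *Tnnt1* and *Tnnc1* had none. Among the fast genes *Myh1*, *Myh2*, *Mybpc2*, *Tnnc2* and *Pvalb* also had no CAGCTG, and all of them were highest in the CLT libraries labelled cKO. A part of this element in their levels was not tested. *Tnnc1* had 2 matches to CANNTG farther upstream and no match to any of the elements within the printed bases, and *Tnnt1* had TATAAA there. A match is a string of letters and not a measured binding site.

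Values are RPKM, the reads of a gene scaled by its length and by the size of the library. This scaling does not adjust for libraries that differ in composition, as these did in the ameloblast genes below. The libraries held 26591612 to 34420180 reads, of which 82.2% to 85.6% fell on genes. *Med1* itself, measured over the whole gene and not over its deleted exons, was at 7.71 and 9.12 RPKM (Ctrl) and 7.10 and 7.03 (cKO) in the head, and at 4.83 and 8.71 (Ctrl) and 9.15 and 8.96 (cKO) in the tail. It was therefore not lower in the CLT libraries labelled cKO, and Ctrl and cKO are used below as names of the libraries as they are labelled. Both Ctrl CLT libraries stood far apart from each other in these genes, so log2 fold changes in CLT are given with each of them left out in turn for most of the 40 genes and for their median. The basal epithelial genes *Krt14* and *Krt5* were at 178 RPKM or more in all 8 libraries. The 7 ameloblast markers, genes of the enamel-forming cell such as *Amelx*, summed to 12503 to 14318 RPKM in CLH and to 84584 and 37392 in Ctrl CLT, but to 19.7 and 15.8 in cKO CLT. The defining RNAs of enamel-forming cells were thus far lower in the pair of CLT libraries labelled cKO than elsewhere.

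The 40 genes took 0.0285% to 0.0346% of the reads on genes in the 4 CLH libraries. In CLT they took 0.266% in Ctrl replicate 1, 0.0361% in Ctrl replicate 2, and 0.762% and 0.817% in the libraries labelled cKO. Their summed RPKM was 132 to 162 in CLH, 1418 in Ctrl CLT 1 and 174 in Ctrl CLT 2, then 3707 and 4011 in cKO CLT. In the sentences below CLH values are listed as Ctrl 1, Ctrl 2, cKO 1 and cKO 2. Ctrl CLT replicate 2 thus lay close to CLH, and Ctrl CLT replicate 1 lay between it and the libraries labelled cKO. In RNA from whole tissue, fewer cells of a type and less RNA per cell cannot be told apart. The plot of all 40 genes by library shows the same order for nearly every gene.

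**Figure D1:**
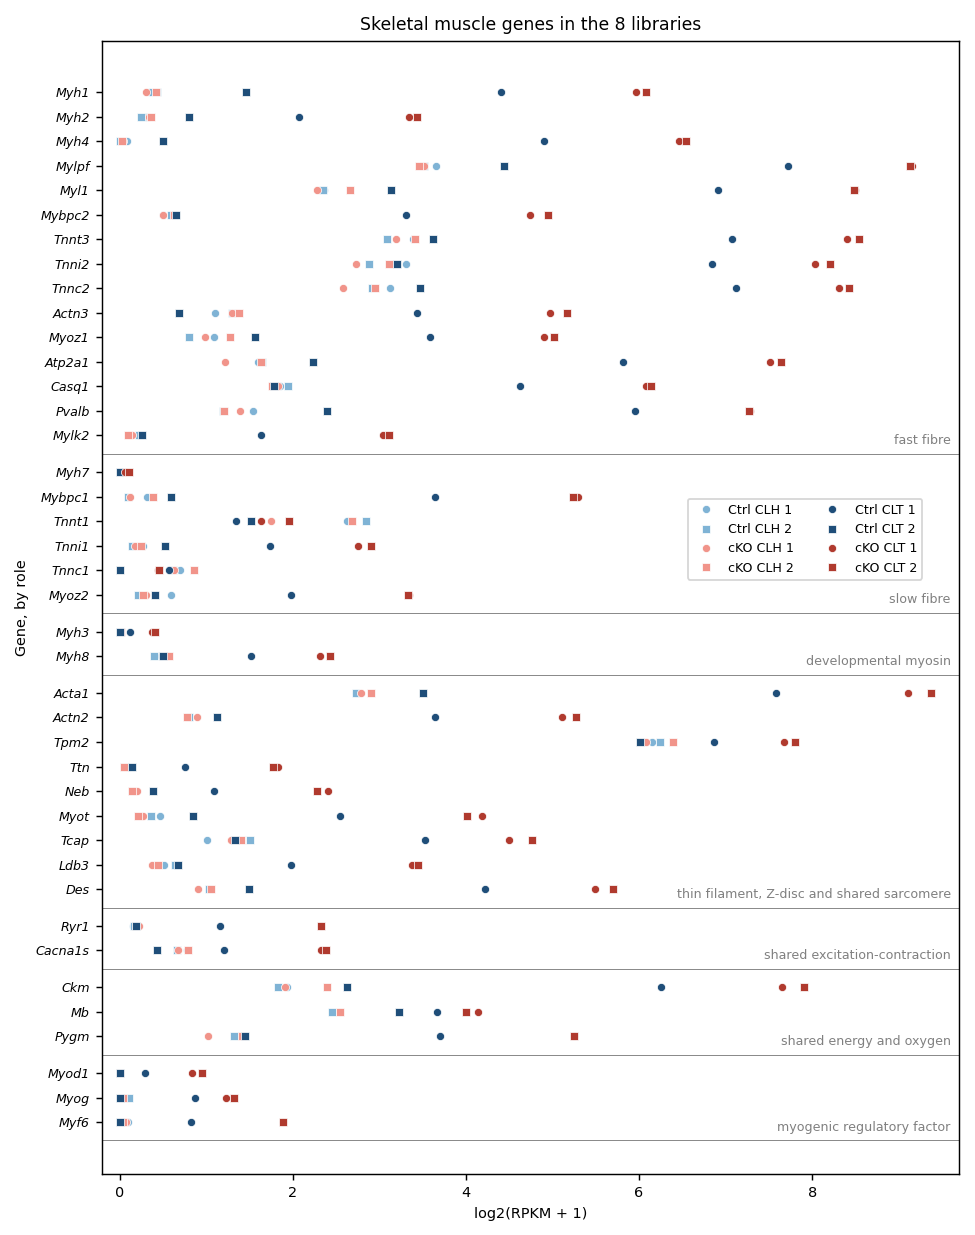
Level of each of the 40 genes (rows, grouped by role) as log2(RPKM + 1) in each of the 8 libraries (points; circles are replicate 1 and squares replicate 2, colours are the groups). The red CLT points labelled cKO lie to the right of the other libraries for most genes, Ctrl CLT 1 lies between, and Ctrl CLT 2 lies near the CLH libraries; *Tnnt1* and *Tnnc1* differ from this order.

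In CLT, both libraries labelled cKO lay above both Ctrl libraries for 39 of the 40 genes, and the exception was *Tnnc1*. Over all rows with a read, 33.8% had both cKO libraries above both Ctrl libraries. The median log2 fold change of the 40 genes was 2.30, from 0.07 (*Myh7*) to 3.80 (*Myh4*), and that of all 14148 genes tested was -0.009. With Ctrl CLT 1 left out it was 3.27 and with Ctrl CLT 2 left out 1.34, so its size depended on which Ctrl library was used, and its direction did not. Fold changes are differences of mean log2(RPKM + 1), which understates the change of genes at low levels, and their SE comes from limma, which fits all genes together. Of the 40 genes, 36 reached an RPKM of 1 in at least 2 libraries and were fitted, and *Ttn*, *Myog* and *Myf6* did so only through the libraries labelled cKO. *Myh7*, *Myh3*, *Tnnc1* and *Myod1* did not reach it. None of the 36 passed an adjusted p of 0.05 by limma as higher or lower, while 0.0777% of all genes tested passed as higher and 1.68% as lower. Before adjustment 25 of the 36 had a p under 0.05 as higher and 0 as lower, beside 2802 and 2314 of all genes tested, and voom on the recovered reads also called none. With either one of the Ctrl CLT libraries left out, 35 passed as higher after adjustment, beside 31.4% of all genes as higher and 38.1% as lower without Ctrl CLT 1, and 29.1% and 23% without Ctrl CLT 2. Each such fit takes its single Ctrl library to vary as little as the libraries labelled cKO do between themselves, which the 2 Ctrl CLT libraries did not, so these numbers are no support. With cKO CLT 1 left out the median log2 fold change of the 40 genes was 2.32, and with cKO CLT 2 left out 2.24.

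The fast-fibre genes held most of the summed RPKM of the 40 genes in cKO CLT. Their 15 genes summed to 42.0 to 51.7 RPKM in CLH, 939 in Ctrl CLT 1 and 74.7 in Ctrl CLT 2, then 2494 and 2619 in cKO CLT. For all 15 the lower of the cKO CLT values exceeded the higher of the Ctrl CLT values, with a median log2 fold change of 3.08. Over all rows with a read, 33.8% stood in that order. Among the fast myosin heavy chains, the motors of the thick filament, *Myh4* encodes the IIB chain of the fastest fibres. Its RPKM was 87.3 and 92.3 in cKO CLT, 29.0 in Ctrl CLT 1, 0.413 in Ctrl CLT 2, and 0.0628, 0, 0.0295 and 0.0169 in CLH. These rested on 13, 0, 6 and 3 reads in CLH and on 14731 and 15145 reads in the CLT libraries labelled cKO. The log2 fold change in CLT was 3.80 (SE 1.56), or 6.01 without Ctrl CLT 1 and 1.6 without Ctrl CLT 2. As a ratio Ctrl CLT 1 lay nearer to the libraries labelled cKO than to Ctrl CLT 2. *Myh1*, which encodes the IIX chain, had 0.270, 0.352, 0.236 and 0.332 in CLH, 20.2 in Ctrl CLT 1 and 1.74 in Ctrl CLT 2, then 61.3 and 66.6 in cKO CLT. It differed by 3.09 (SE 1.05), or 4.57 without Ctrl CLT 1 and 1.61 without Ctrl CLT 2. *Myh2*, the IIA chain of fast oxidative fibres, was the lowest of the 3 in cKO CLT, with 9.11 and 9.82 in cKO CLT, 3.19 in Ctrl CLT 1, 0.736 in Ctrl CLT 2, and 0.234, 0.183, 0.268 and 0.289 in CLH. *Myh2* differed by 1.96 (SE 0.48) on the log2 scale, or 2.59 without Ctrl CLT 1 and 1.32 without Ctrl CLT 2. For none of the 3 chains did the Ctrl and cKO libraries overlap in CLT.

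The fast light chains and accessory proteins of the thick filament differed in level, *Mylpf* and *Myl1* being above all 3 heavy chains in cKO CLT and *Mybpc2* and *Mylk2* far below *Myh4*. *Mylpf*, the fast regulatory light chain whose promoter is printed above (chromosome 7, 127211608 to 127214287, mm10), had 11.6, 10.4, 10.4 and 10 in CLH, 210.4 in Ctrl CLT 1 and 20.7 in Ctrl CLT 2, then 569 and 559 in cKO CLT. Its log2 fold change in CLT was 3.06 (SE 1.16), or 4.70 without Ctrl CLT 1 and 1.42 without Ctrl CLT 2. *Myl1*, an essential light chain of fast fibres, had 359 and 358 in cKO CLT, 119 in Ctrl CLT 1, 7.79 in Ctrl CLT 2, and 4.14, 4.09, 3.84 and 5.30 in CLH. The cKO CLT values of *Myl1* were nearly equal. *Mybpc2*, the fast myosin-binding protein C, had 0.417, 0.503, 0.409 and 0.541 in CLH, 8.87 in Ctrl CLT 1 and 0.571 in Ctrl CLT 2, then 25.8 and 29.9 in cKO CLT. *Mylk2*, the kinase that phosphorylates the regulatory light chain, had 7.21 and 7.66 in cKO CLT, 2.09 in Ctrl CLT 1, 0.191 in Ctrl CLT 2, and 0.0788, 0.164, 0.1 and 0.0689 in CLH. Ctrl CLT 2 was close to the CLH libraries for both of these. *Myl1* differed by 3.47 (SE 1.33), or 5.35 without Ctrl CLT 1 and 1.58 without Ctrl CLT 2. *Mybpc2* differed by 2.87 (SE 0.95), or 4.2 without Ctrl CLT 1 and 1.54 without Ctrl CLT 2. For *Mylk2* it was 2.14 (SE 0.51), or 2.82 without Ctrl CLT 1 and 1.45 without Ctrl CLT 2.

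Fast troponins, which make the thin filament respond to calcium, were among the highest of all the genes. *Tnnt3*, the subunit that binds tropomyosin, had 9.49, 7.53, 8.17 and 9.6 in CLH, 134 in Ctrl CLT 1 and 11.3 in Ctrl CLT 2, then 338 and 371 in cKO CLT. *Tnni2*, the inhibitory subunit, had 260.5 and 294 in cKO CLT, 114 in Ctrl CLT 1, 8.18 in Ctrl CLT 2, and 8.93, 6.36, 5.64 and 7.66 in CLH. *Tnnc2*, the calcium-binding subunit, had 7.68, 6.56, 4.97 and 6.75 in CLH, 138 in Ctrl CLT 1 and 10.1 in Ctrl CLT 2, then 317 and 343 in cKO CLT. In all 3, Ctrl CLT 1 was far above Ctrl CLT 2 and below both libraries labelled cKO, and for *Tnni2* Ctrl CLT 2 lay within the range of CLH. Their log2 fold changes in CLT were 3.12 (SE 1.22), 3.1 (SE 1.29) and 3.08 (SE 1.29). Without Ctrl CLT 1 they were 4.85, 4.92 and 4.90, and without Ctrl CLT 2 they were 1.40, 1.27 and 1.25. At the Z-disc, *Actn3*, the actinin of fast fibres, had 30.3 and 35 in cKO CLT, 9.80 in Ctrl CLT 1, 0.606 in Ctrl CLT 2, and 1.14, 1.46, 1.46 and 1.59 in CLH. Its value in Ctrl CLT 2 was below all 4 CLH libraries. *Myoz1*, a calcineurin-binding Z-disc protein of fast fibres, had 1.12, 0.748, 0.984 and 1.41 in CLH, 11 in Ctrl CLT 1 and 1.95 in Ctrl CLT 2, then 29.0 and 31.4 in cKO CLT. *Actn3* differed by 3.01 (SE 0.98), or 4.38 without Ctrl CLT 1 and 1.63 without Ctrl CLT 2. *Myoz1* differed by 2.39 (SE 0.73), or 3.40 without Ctrl CLT 1 and 1.38 without Ctrl CLT 2.

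Fast-fibre genes of calcium handling showed the same order. *Atp2a1*, the fast calcium pump SERCA1, had 181 and 199 in cKO CLT, 55.3 in Ctrl CLT 1, 3.71 in Ctrl CLT 2, and 2.03, 2.12, 1.32 and 2.09 in CLH. The log2 fold change in CLT was 3.55 (SE 1.27), or 5.34 without Ctrl CLT 1 and 1.76 without Ctrl CLT 2. *Casq1*, which stores calcium in the reticulum, had 2.62, 2.86, 2.55 and 2.38 in CLH, 23.6 in Ctrl CLT 1 and 2.43 in Ctrl CLT 2, then 66.9 and 69.2 in cKO CLT. It differed by 2.91 (SE 1.01), or 4.33 without Ctrl CLT 1 and 1.49 without Ctrl CLT 2. *Pvalb*, a soluble calcium buffer of fast fibres that is also made by some neurons, had 154 and 153 in cKO CLT, 60.8 in Ctrl CLT 1, 4.25 in Ctrl CLT 2, and 1.90, 1.28, 1.61 and 1.31 in CLH. *Pvalb* differed by 3.1 (SE 1.26), or 4.88 without Ctrl CLT 1 and 1.32 without Ctrl CLT 2. In each of the 3 the libraries labelled cKO were close to each other and those labelled Ctrl were far apart, and for *Casq1* Ctrl CLT 2 lay within the range of CLH.

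The slow-fibre list split. Its 6 genes summed to 3.35 to 7.03 RPKM in CLH, 18.8 in Ctrl CLT 1 and 3.13 in Ctrl CLT 2, then 55.4 and 55.6 in cKO CLT, and most of the last sum was *Mybpc1*. *Mybpc1*, the slow myosin-binding protein C, which fast fibres also make, had 0.248, 0.0654, 0.0893 and 0.306 in CLH, 11.5 in Ctrl CLT 1 and 0.510 in Ctrl CLT 2, then 38.1 and 36.7 in cKO CLT. Ctrl CLT 2 lay above all 4 CLH libraries for it. *Tnni1*, the slow inhibitory troponin, had 5.73 and 6.48 in cKO CLT, 2.33 in Ctrl CLT 1, 0.439 in Ctrl CLT 2, and 0.209, 0.1, 0.133 and 0.182 in CLH. Its log2 fold change in CLT was 1.70 (SE 0.46), or 2.30 without Ctrl CLT 1 and 1.09 without Ctrl CLT 2. *Myoz2*, the slow and cardiac calcineurin-binding Z-disc protein, had 0.504, 0.161, 0.231 and 0.205 in CLH, 2.93 in Ctrl CLT 1 and 0.326 in Ctrl CLT 2, then 9.13 and 9.09 in cKO CLT. These 3 kept the order seen in the fast genes. *Mybpc1* differed by 3.14 (SE 1.08), or 4.67 without Ctrl CLT 1 and 1.62 without Ctrl CLT 2. *Myoz2* differed by 2.15 (SE 0.58), or 2.93 without Ctrl CLT 1 and 1.36 without Ctrl CLT 2.

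Other slow genes were close to 0 or stood in another order. *Myh7*, the slow type I myosin heavy chain, had 0.0471 and 0.0787 in cKO CLT, 0.0282 in Ctrl CLT 1, 0 in Ctrl CLT 2, and 0.00480, 0, 0 and 0.0112 in CLH. No library had more than 13 *Myh7* reads. The fold of the cKO CLT mean over Ctrl CLT 2 was at least 3.38, taking 3 reads as the level that 0 reads allow in that library. *Tnnt1*, the slow tropomyosin-binding troponin, was higher in CLH than in Ctrl CLT, with 5.19, 6.17, 2.35 and 5.40 in CLH, 1.54 in Ctrl CLT 1 and 1.85 in Ctrl CLT 2, then 2.10 and 2.87 in cKO CLT. The log2 fold change of *Tnnt1* in CLT was 0.36 (SE 0.21), or 0.28 without Ctrl CLT 1 and 0.45 without Ctrl CLT 2. *Tnnc1*, the slow and cardiac calcium-binding troponin, had 0.355 and 0.365 in cKO CLT, 0.486 in Ctrl CLT 1, 0 in Ctrl CLT 2, and 0.620, 0.529, 0.548 and 0.818 in CLH. Its CLT ranges overlapped, on 10 and 0 reads in Ctrl and 7 and 7 in cKO, and the log2 fold change of 0.16 became -0.13 without Ctrl CLT 2.

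The developmental myosins were low. *Myh3*, the embryonic chain, had 0, 0, 0.00494 and 0.0113 in CLH, 0.0856 in Ctrl CLT 1 and 0 in Ctrl CLT 2, then 0.298 and 0.330 in cKO CLT, on 50 and 54 reads in the libraries labelled cKO. Its cKO CLT mean was at least 16.7 times Ctrl CLT 2, which had no read. *Myh8*, the perinatal chain, had 3.99 and 4.37 in cKO CLT, 1.85 in Ctrl CLT 1, 0.416 in Ctrl CLT 2, and 0.387, 0.315, 0.477 and 0.479 in CLH. The log2 fold change of *Myh8* in CLT was 1.36 (SE 0.40), or 1.87 without Ctrl CLT 1 and 0.86 without Ctrl CLT 2. In CLH *Myh8* was the highest of the 6 heavy chains in 3 of the 4 libraries, with *Myh1* just above it in Ctrl CLH 2.

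**Figure D2:**
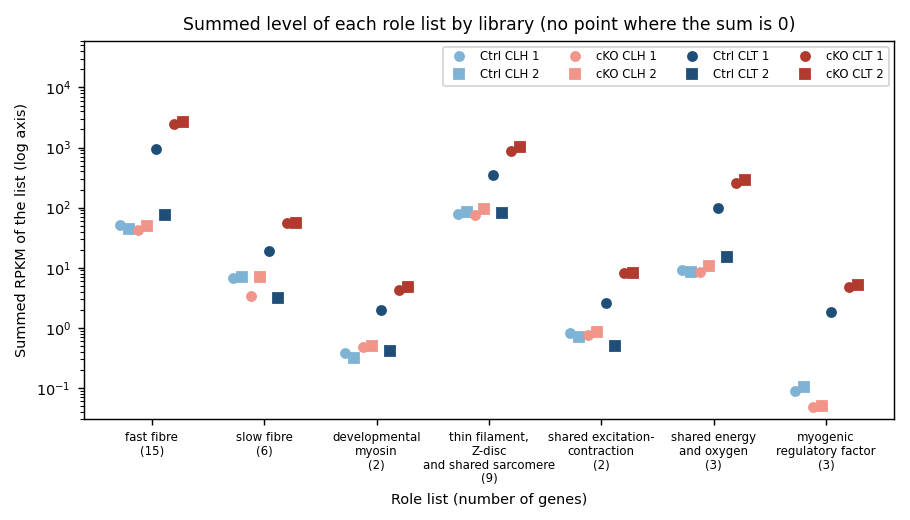
Summed RPKM (log axis) of each role list in each of the 8 libraries; the number of genes is under each list. In every list the CLT libraries labelled cKO are highest and Ctrl CLT 1 is next, and for the myogenic regulatory factors Ctrl CLT 2 has no point because its sum was 0.

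Thin-filament, Z-disc and shared sarcomere genes also lay higher in both CLT libraries labelled cKO, in 9 of 9 genes. Their median log2 fold change was 2.20, and 33.8% of all rows with a read stood in that order. *Acta1*, skeletal alpha-actin and the body of the thin filament (chromosome 8, 123891767 to 123894736, mm10), had the highest mean level of the 40 genes in cKO CLT, although *Mylpf* was higher than it in cKO CLT 1. The RPKM of *Acta1* was 5.62, 5.61, 5.89 and 6.45 in CLH, 189.8 in Ctrl CLT 1 and 10.3 in Ctrl CLT 2, then 551 and 659 in cKO CLT. The log2 fold change in CLT was 3.70 (SE 1.44), or 5.74 without Ctrl CLT 1 and 1.66 without Ctrl CLT 2. No CLH library reached the lower of the Ctrl CLT values. *Tpm2*, beta-tropomyosin, is also made by smooth muscle and other cells, and unlike the rest it was plentiful in CLH, with 203 and 222 in cKO CLT, 116 in Ctrl CLT 1, 63.5 in Ctrl CLT 2, and 69.7, 74.7, 66.9 and 83.2 in CLH. On the log2 scale it differed by 1.30 (SE 0.33), or 1.73 without Ctrl CLT 1 and 0.87 without Ctrl CLT 2. Ctrl CLT 2 was below all 4 CLH libraries for this gene. *Neb*, nebulin, which runs along the thin filament, had 0.124, 0.101, 0.148 and 0.0993 in CLH, 1.13 in Ctrl CLT 1 and 0.309 in Ctrl CLT 2, then 4.28 and 3.86 in cKO CLT. *Ttn*, titin, which spans from Z-disc to the middle of the sarcomere, had 2.56 and 2.42 in cKO CLT, 0.693 in Ctrl CLT 1, 0.0995 in Ctrl CLT 2, and 0.0329, 0.0382, 0.0435 and 0.0324 in CLH. Both genes kept the order of the fast-fibre genes. The log2 fold changes of *Neb* and *Ttn* were 1.6 (SE 0.30) and 1.36 (SE 0.28). Without Ctrl CLT 1 they were 1.95 and 1.67, and without Ctrl CLT 2 they were 1.25 and 1.04. RPKM is per length, and for this very long transcript *Ttn* rested on 7491 and 6898 reads in cKO CLT against 2116 and 276 in Ctrl CLT.

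The remaining Z-disc genes kept the same order at moderate levels. *Des*, desmin, the intermediate filament that links Z-discs and that smooth muscle makes too, had 1.05, 1.04, 0.869 and 1.07 in CLH, 17.6 in Ctrl CLT 1 and 1.82 in Ctrl CLT 2, then 44.0 and 50.9 in cKO CLT. Its log2 fold change in CLT was 2.74 (SE 0.97), or 4.10 without Ctrl CLT 1 and 1.38 without Ctrl CLT 2. *Actn2*, the actinin of all striated muscle, had 33.4 and 37.5 in cKO CLT, 11.5 in Ctrl CLT 1, 1.18 in Ctrl CLT 2, and 0.730, 0.736, 0.864 and 0.714 in CLH. *Ldb3*, a Z-disc scaffold, had 0.430, 0.557, 0.296 and 0.354 in CLH, 2.94 in Ctrl CLT 1 and 0.594 in Ctrl CLT 2, then 9.35 and 9.87 in cKO CLT. For both, Ctrl CLT 2 lay just above the CLH libraries. *Tcap*, telethonin, which caps titin at the Z-disc, had 21.5 and 26.1 in cKO CLT, 10.5 in Ctrl CLT 1, 1.51 in Ctrl CLT 2, and 1.01, 1.84, 1.44 and 1.64 in CLH, and Ctrl CLT 2 lay within the range of CLH. *Myot*, myotilin, an actin-bundling protein of the Z-disc, had 0.382, 0.287, 0.201 and 0.153 in CLH, 4.85 in Ctrl CLT 1 and 0.801 in Ctrl CLT 2, then 17.2 and 15.1 in cKO CLT. The log2 fold changes of these last 4 were 2.80 (SE 0.90), 2.08 (SE 0.49), 2.20 (SE 0.79) and 2.40 (SE 0.62). In the same order they were 4.06, 2.73, 3.30 and 3.25 without Ctrl CLT 1, and 1.54, 1.43, 1.11 and 1.55 without Ctrl CLT 2.

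Both genes that couple membrane excitation to calcium release lay higher in cKO CLT, at low levels. *Ryr1*, the release channel, had 4.02 and 4.03 in cKO CLT, 1.24 in Ctrl CLT 1, 0.142 in Ctrl CLT 2, and 0.113, 0.121, 0.166 and 0.137 in CLH. *Cacna1s*, the voltage sensor that opens it, had 0.715, 0.577, 0.601 and 0.724 in CLH, 1.31 in Ctrl CLT 1 and 0.348 in Ctrl CLT 2, then 4.03 and 4.22 in cKO CLT. Ctrl CLT 2 was within the CLH range for *Ryr1* and below all 4 CLH libraries for *Cacna1s*. Their log2 fold changes in CLT were 1.65 (SE 0.38) and 1.54 (SE 0.32). They were 2.14 and 1.93 without Ctrl CLT 1, and 1.17 and 1.15 without Ctrl CLT 2.

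Of the 3 genes of muscle energy and oxygen supply, *Ckm*, the muscle creatine kinase, had 200.4 and 239.6 in cKO CLT, 75.0 in Ctrl CLT 1, 5.18 in Ctrl CLT 2, and 2.83, 2.55, 2.76 and 4.26 in CLH. The log2 fold change in CLT was 3.34 (SE 1.28), or 5.15 without Ctrl CLT 1 and 1.53 without Ctrl CLT 2. Both Ctrl CLT libraries lay above CLH for it. *Pygm*, the muscle glycogen phosphorylase, had 1.6, 1.5, 1.02 and 1.67 in CLH, 12 in Ctrl CLT 1 and 1.72 in Ctrl CLT 2, then 37.1 and 37.1 in cKO CLT. It differed by 2.68 (SE 0.81), or 3.81 without Ctrl CLT 1 and 1.55 without Ctrl CLT 2. *Mb*, myoglobin, which binds oxygen in oxidative fibres, differed least of the 3, with 16.6 and 15.0 in cKO CLT, 11.7 in Ctrl CLT 1, 8.38 in Ctrl CLT 2, and 4.83, 4.49, 4.85 and 4.84 in CLH. On the log2 scale it differed by 0.62 (SE 0.22), or 0.84 without Ctrl CLT 1 and 0.40 without Ctrl CLT 2. As a ratio, the cKO CLT mean of *Mb* was 1.35 times Ctrl CLT 1 and 1.89 times Ctrl CLT 2, against 2.94 and 42.4 times for *Ckm*.

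The myogenic regulatory factors, transcription factors that set the muscle fate, were read only a few times outside CLT. *Myod1* had no read in any CLH library or in Ctrl CLT 2, and Ctrl CLT 1 had 12 reads of it while the libraries labelled cKO had 41 and 47. Its RPKM was 0.789 and 0.929 in cKO CLT beside 0.221 in Ctrl CLT 1, and the cKO CLT mean was at least 14.1 times the level that 3 reads would give in Ctrl CLT 2. *Myog*, myogenin, which drives terminal differentiation, had 0.0196, 0.0754, 0 and 0.0229 in CLH, 0.831 in Ctrl CLT 1 and 0 in Ctrl CLT 2, then 1.35 and 1.49 in cKO CLT, at least 18.6 times by the same bound. *Myf6*, the factor kept on in mature fibres, had 2.69 and 2.70 in cKO CLT, 0.767 in Ctrl CLT 1, 0 in Ctrl CLT 2, and 0.0698, 0.0298, 0.0475 and 0.0271 in CLH, at least 29.8 times by that bound. All 3 had no read in Ctrl CLT 2. *Myog* in Ctrl CLT 1 was 58.6% of its cKO CLT mean, while *Myod1* and *Myf6* were 25.8% and 28.5%.

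The myosin heavy chains allow the fibre types to be compared within a library. Each share is the RPKM of a chain divided by the summed RPKM of the 6 chains in that library. In Ctrl CLT 1, *Myh4* made up 53.4% of the summed RPKM of the 6 chains, *Myh1* 37.2%, *Myh2* 5.86%, *Myh8* 3.40%, *Myh3* 0.157% and *Myh7* 0.0519%. In the CLT libraries labelled cKO, *Myh4* made up 53.9% and 53.2%, *Myh1* 37.8% and 38.4%, *Myh2* 5.62% and 5.66%, and *Myh8* 2.46% and 2.52%. The order and size of the shares in Ctrl CLT 1 were thus close to those in cKO CLT, although the summed level was not. The share of *Myh4* by reads was 53.3% in Ctrl CLT 1, with an exact 95% binomial interval of 52.3% to 54.3%, and 53.8% (53.2% to 54.4%) and 53.1% (52.5% to 53.7%) in cKO CLT. These intervals cover counting error only. They overlap one another, and that of *Myh8* in Ctrl CLT 1 (3.12% to 3.86%) lies above both in cKO CLT (2.33% to 2.70% and 2.39% to 2.76%).

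Ctrl CLT 2 differed in its shares as well as in its level. There *Myh1* made up 52.6%, *Myh2* 22.3%, *Myh8* 12.6% and *Myh4* 12.5% of the RPKM, on 531 reads in all, and the interval of the *Myh4* read share was 9.74% to 15.5%. In the 4 CLH libraries, with 139 to 209 reads on the 6 chains, *Myh8* took 37.0% to 47.0%, *Myh1* 23.3% to 41.4%, *Myh2* 21.6% to 26.4% and *Myh4* 0% to 6.54%. In Ctrl CLH 2 *Myh4* had 0 of 139 reads, which allows a share of up to 2.16% if 3 reads are taken as the most that 0 allows, while the exact interval reaches 2.62%. *Myh7* did not pass 0.981% in any library. The chains share sequence: 26.1% of the windows of 50 bases in the longest *Myh1* transcript of GENCODE M21 also occur in another of the 6 chains, as do 26.7% for *Myh2*, 18.6% for *Myh4*, 19.9% for *Myh8*, 3.66% for *Myh3* and 0.21% for *Myh7*. Reads from such windows may have been dropped or given to another chain, so the smaller shares are uncertain.

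**Figure D3:**
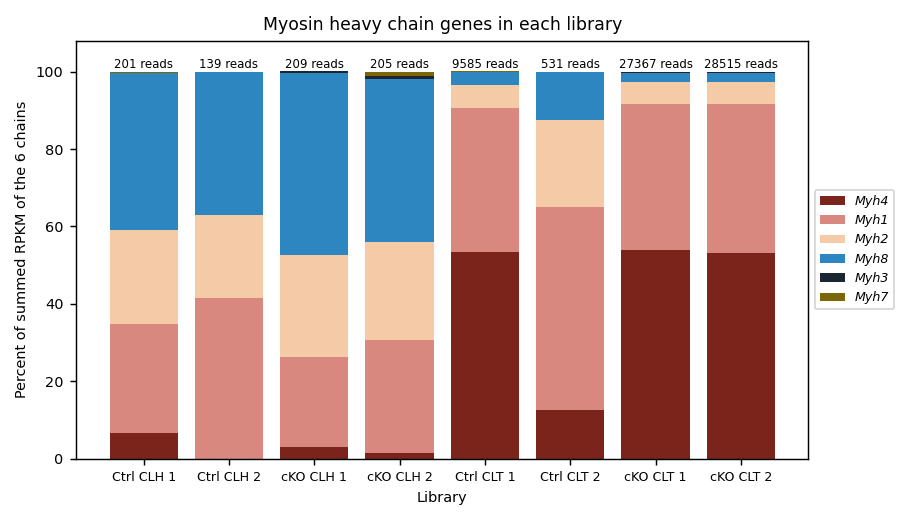
Percent of the summed RPKM of the 6 myosin heavy chain genes taken by each gene (stacked bars from 0) in each library, with the reads on the 6 genes printed above. Ctrl CLT 1 and both cKO CLT libraries have *Myh4* above 53% and *Myh8* below 4%, and Ctrl CLT 2 and the CLH libraries have larger *Myh2* and *Myh8* shares on far fewer reads.

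Pairs of fast and slow genes that fill the same place gave a further view. The RPKM ratio of the inhibitory troponins *Tnni2* to *Tnni1* was 48.9 in Ctrl CLT 1, 18.6 in Ctrl CLT 2 on 13 *Tnni1* reads, and 45.4 and 45.3 in cKO CLT. In CLH it was 42.0 to 42.8 in the 3 libraries in which *Tnni1* had more than 3 reads. These ratios rested on only 8, 5 and 6 *Tnni1* reads and are uncertain, however close to each other. The ratio of *Tnnt3* to *Tnnt1* was 1.22 to 3.48 in CLH, 87.1 and 6.12 (Ctrl CLT) and 161 and 129 (cKO CLT), with *Tnnt1* at 2.87 RPKM or less in every CLT library. The ratio of *Myoz1* to *Myoz2* was 2.23 to 6.87 in CLH and 3.18 to 5.97 in CLT. Summed over the lists, fast over slow was 6.34 to 12.5 in CLH, 50 and 23.9 (Ctrl CLT) and 45.0 and 47.1 (cKO CLT). Without *Tnnt1* and *Tnnc1* it was 53.6 to 136 in CLH, 56.0 and 58.6 (Ctrl CLT) and 47.1 and 50 (cKO CLT), so the lower ratio of CLH rested on those 2 slow troponins.

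Set against the mean of the libraries labelled cKO, each Ctrl CLT library gave its own picture. Ctrl CLT 1 held a median of 32.8% of the cKO CLT mean over the 40 genes, from 25.8% (*Myod1*) to 135% (*Tnnc1*), and Ctrl CLT 2 held a median of 3.27%, from 0% to 74.6% (*Tnnt1*). For the 15 fast-fibre genes these ranges were narrow in Ctrl CLT 1, at 28.1% to 41.8%, and 0.459% to 7.77% in Ctrl CLT 2. For 38 of the 40 genes both cKO CLT libraries lay above Ctrl CLT 1 and Ctrl CLT 1 lay above Ctrl CLT 2, the exceptions being *Tnnt1* and *Tnnc1*. Ctrl CLT 1 lay above all 4 CLH libraries for 38 genes and below them for the same 2. Ctrl CLT 2 lay above all 4 for 24 genes, within their range for 10 and below for 6, which were *Actn3*, *Tnnt1*, *Tnnc1*, *Tpm2*, *Cacna1s* and *Myf6*. In Ctrl CLT 2 some muscle genes thus lay above CLH as well, as in *Atp2a1* at 3.71 RPKM against 1.32 to 2.12 in CLH. Their levels were far below those in cKO CLT. How many of all genes stood in these orders was not counted, so the numbers describe the 40 genes only.

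Marker genes of other tissues of the skin and jaw moved with the muscle genes. The 5 hair shaft and root sheath markers, such as the keratin *Krt71*, summed to 3.59 to 4.99 RPKM in CLH, 3075 and 8.43 (Ctrl CLT) and 9143 and 10051 (cKO CLT). The 6 fat cell markers, such as the fatty acid carrier *Fabp4*, summed to 7.08 to 9.62 in CLH, 257 and 7.22 (Ctrl CLT) and 699 and 647 (cKO CLT), and 5 of the 6 had no read in Ctrl CLT 2. The 4 cornified epidermis markers summed to 5.12 to 13.5, 219 and 3.69, and 659 and 670.3 in the same order. The 5 melanocyte markers summed to 3.60 to 3.85, 128 and 9.89, and 394 and 396. Ctrl CLT 1 held a median of 33.4% of the cKO CLT mean for the hair markers, 35.6% for fat, 32.4% for cornified epidermis and 31.6% for melanocytes, beside 32.8% for the 40 muscle genes. Their part in the muscle result was not tested.

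**Figure D4:**
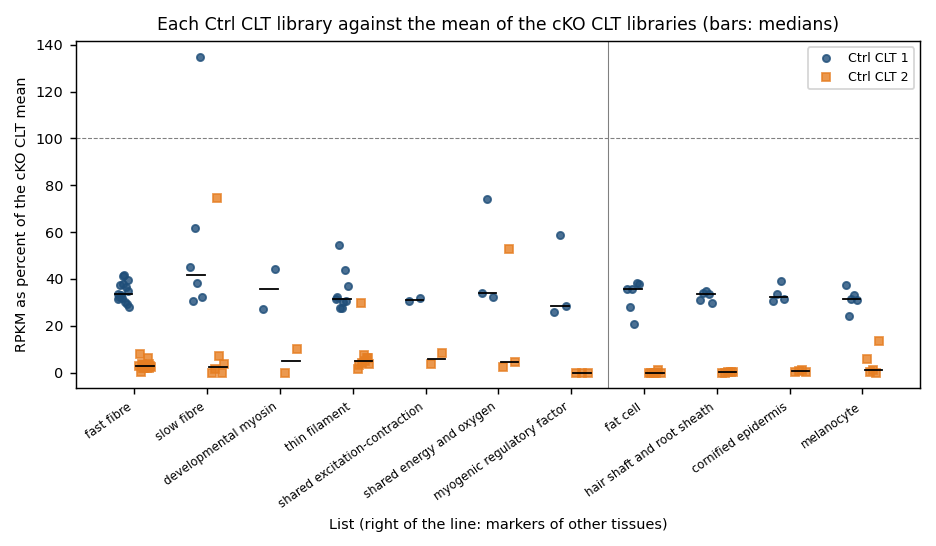
RPKM of each gene in Ctrl CLT 1 (blue circles) and Ctrl CLT 2 (orange squares) as a percent of the mean of both cKO CLT libraries, by role list and for markers of 4 other tissues; short bars are medians and the dashed line is 100%. Ctrl CLT 1 sits near a median of 32.8% for the muscle genes and near 31.6% to 35.6% for the other tissues, and Ctrl CLT 2 sits below 10% for most genes, with *Tnnt1* (74.6%), *Mb* (53.0%) and *Tpm2* (29.9%) above the other muscle genes.

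Other marker lists moved less or the other way. The 7 heart muscle markers summed to 4.22 to 4.87 RPKM in CLH, 3.58 and 1.80 (Ctrl CLT) and 4.94 and 6.56 (cKO CLT), with *Myh6* at 0.0603 RPKM or less and *Mybpc3* at 0.0265 or less in every library. Among them *Tnnt2*, which developing and regenerating skeletal muscle also makes, was 1.43 and 0.252 (Ctrl CLT) and 3.65 and 4.36 (cKO CLT). The 7 smooth muscle markers did not move as one. Their sum was highest in CLH, at 302 to 484, with 182 and 194 (Ctrl CLT) and 239 and 260.4 (cKO CLT), and *Acta2* and *Tagln* held most of it. *Myh11*, the smooth muscle myosin heavy chain, was at 4.45 to 6.58 RPKM in CLH, 10.8 and 5.35 (Ctrl CLT) and 17.5 and 18 (cKO CLT). By limma, between the regions of mice labelled cKO, *Myh11*, *Smtn*, *Actg2* and *Lmod1* passed as higher and *Acta2*, *Tagln* and *Cnn1* as lower. Over all genes tested, 28.9% passed as higher and 45.1% as lower there. The 6 nerve and Schwann cell markers summed to 48.7 to 57.1, 39.3 and 33.3, and 102 and 105. The 5 tendon markers summed to 192 to 213 in CLH, 109 and 249 (Ctrl CLT) and 22.5 and 20.2 (cKO CLT). They did not move as one either. Their log2 fold changes in CLT were -4.06 (*Fmod*), -1.71 (*Mkx*), -0.07 (*Tnmd*), 0.16 (*Scx*) and 0.75 (*Thbs4*). The 5 basal epithelium markers summed to 573 to 668, 1333 and 824, and 1738 and 1964, and the 8 odontoblast and bone markers to 2151 to 3131, 2182 and 2563, and 378 and 473. Endothelial, leukocyte and erythroid markers summed to 54.0 to 89.4, 23.8 to 48.8 and 4.28 to 8.45 RPKM over all 8 libraries.

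In CLH, the libraries labelled cKO and Ctrl were set against each other at the low levels both had. The median log2 fold change of the 40 genes was 0.005, from -0.53 (*Tnnt1*) to 0.27 (*Ckm*), with 20 genes above 0 and 17 below. None passed an adjusted p of 0.05 by limma in either direction, as was so for all genes tested (0% higher and 0% lower), and voom called none. Before adjustment, with a p under 0.05, 0 of the 36 were higher and 2 lower (*Myot* and *Ldb3*), and 684 and 343 of all genes. Both cKO libraries lay above both Ctrl libraries for 7 genes (*Myh2*, *Actn3*, *Myh3*, *Myh8*, *Acta1*, *Ryr1* and *Mb*) and below for 3 (*Casq1*, *Myot* and *Ldb3*), 10 of 40, where 35.1% of all rows with a read did not overlap in one direction or the other. The largest differences were small beside the spread: *Tnnt1* had 5.19 and 6.17 RPKM in Ctrl CLH, against 2.35 and 5.40 in cKO CLH (SE 0.33), and *Ckm* had 2.83 and 2.55 against 2.76 and 4.26 (SE 0.18). *Acta1* differed by 0.12 (SE 0.09), *Myh8* by 0.13 (SE 0.05) and *Atp2a1* by -0.20 (SE 0.15). The myosins other than *Myh8* rested on 0 to 59 reads per CLH library, so a small difference in them was not detectable at this depth.

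Between the regions in mice labelled cKO, both CLT libraries lay above both CLH libraries for 38 of the 40 genes, where 31.4% of all rows with a read did so. *Tnnc1* lay lower and *Tnnt1* overlapped. By limma 35 of the 36 genes tested passed as higher and 0 as lower, beside 28.9% of all genes tested passing as higher and 45.1% as lower. *Ttn*, *Myog* and *Myf6* were in this fit only through the cKO CLT libraries, so the 35 are no support. The median log2 fold change of the 40 genes was 3.51 beside -0.178 for all genes tested (0.024 after median-of-ratios scaling), and it ranged from -0.42 (*Tnnt1*) to 6.47 (*Myh4*). As ratios of mean RPKM, cKO CLT was 98.1 times cKO CLH for *Acta1*, 225 times for *Myh1*, 112 times for *Atp2a1*, 105 times for *Pvalb*, 62.7 times for *Ckm*, 55.1 times for *Mylpf* and 34.0 times for *Myh2*. It was 8.74 times for *Myh8*, 3.26 times for *Mb* and 2.83 times for *Tpm2*. *Myod1*, with no read in cKO CLH, was at least 16.7 times higher. For *Tnnt1* the ratio was 0.641 and for *Tnnc1* it was 0.527.

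Between the regions in Ctrl mice the result turned on which CLT library was used. The median log2 fold change was 1.16, from -1.31 (*Tnnt1*) to 2.81 (*Acta1* and *Pvalb*), beside -0.134 for all genes tested (0.014 after median-of-ratios scaling), and 38 of the 40 were above 0. With Ctrl CLT 1 left out it was 0.10 and 1 gene passed, beside 1.91% of all genes as higher and 1.4% as lower. With Ctrl CLT 2 left out it was 2.18 and 36 passed, 35 as higher and 1 as lower, beside 18.4% and 34.9% of all genes. Both fits take the single CLT library to vary like the CLH pair, so neither number is support. None of the 36 genes tested passed by limma as higher or lower, beside 0.00707% of all genes as higher and 0% as lower. Before adjustment, with a p under 0.05, there were 1 higher (*Mb*) and 1 lower (*Tnnt1*) of the 36, and 587 and 1273 of all genes, and voom called none. Both CLT libraries lay above both CLH libraries for 26 genes and below for 2, *Tnnt1* and *Tnnc1*, and 12 overlapped. Of all rows with a read, 13.3% had both above and 31.9% both below. The genes with the most even Ctrl CLT libraries were *Mb*, at 11.7 and 8.38 RPKM against 4.83 and 4.49 in CLH, and *Tnnt1*, at 1.54 and 1.85 against 5.19 and 6.17.

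**Figure D5:**
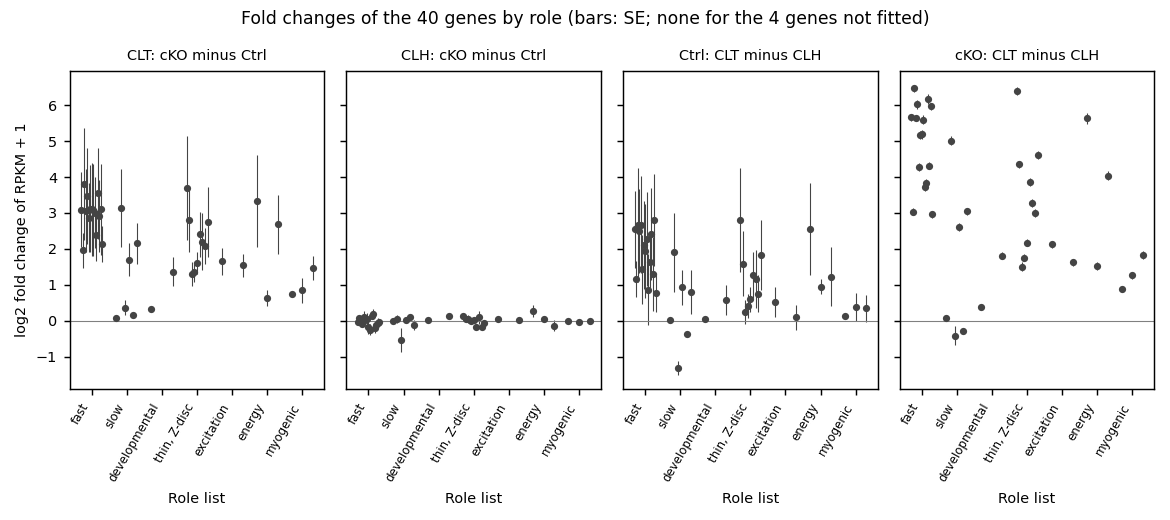
Log2 fold change of RPKM + 1 for the 40 genes (points, by role list) in 4 comparisons, with the limma SE as bars and none for the 4 genes that were not fitted. Values spread around 0 in CLH, and error bars are wide in both comparisons that hold the Ctrl CLT libraries and short between the regions of mice labelled cKO, where fast-fibre genes reach 6.47.

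The difference between the regions in the effect of the cKO label was read from an interaction term over all 8 libraries. It was above 0 for all 40 genes, with a median of 2.26. For 7 of the 36 genes tested it passed as higher by limma and for 0 as lower, while 8.05% of all genes tested passed as higher and 9.58% as lower. The 7 genes were *Mylk2*, *Ttn*, *Neb*, *Ldb3*, *Ryr1*, *Cacna1s* and *Myf6*, and *Acta1*, with a larger difference of 3.58 (SE 1.64), did not pass. *Ttn* and *Myf6* were in the fit only through the cKO CLT libraries, so the 7 are no support. Voom called none of the 36, and the fit with the replicate number as a block called 1. Without any one of the 6 libraries other than Ctrl CLT none passed, beside 0.0141% to 0.134% of all genes as higher and 1.39% to 1.87% as lower. Without Ctrl CLT 1 35 passed, beside 28.5% and 34.7% of all genes, and without Ctrl CLT 2 34 passed, beside 26.6% and 20.1%. The interaction uses the same CLT libraries as the comparisons above and is no separate evidence.

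A list of 87 further muscle genes, chosen with earlier results of these data known, had 82 rows in the table, of which 68 were tested. In CLT none of the 68 passed by limma. Before adjustment 49 lay higher and 6 lower with a limma p under 0.05, beside 2802 and 2314 of all 14148 genes tested. Among the 68, 12 reached the filter on low values only through the cKO CLT libraries, so these numbers are no support. With a single Ctrl CLT library, 55 passed as higher and 8 as lower (without Ctrl CLT 1), and 52 and 7 (without Ctrl CLT 2), with the same assumption and beside the same shares of all genes as for the 40. The median log2 fold change over the 82 was 1.02. Of the 25 further sarcomere and Z-disc genes 24 were above 0. *Tpm1*, alpha-tropomyosin of many cell types, had 268 and 217 RPKM in Ctrl CLT, against 297 and 299 in cKO CLT, and was as high in CLH at 257 to 291. *Pdlim3*, an actinin-binding Z-disc protein, had 7.67 and 1.91 against 17.9 and 20.0. *Apobec2*, a muscle-restricted member of a deaminase family, had the largest difference of the list, with 12.2 and 1.05 against 33.9 and 36.1, a log2 fold change of 2.79. *Eno3*, the muscle enolase, had 49.4 and 12.9 against 103 and 115, while *Pfkm*, the muscle phosphofructokinase that other tissues also make, had 35.1 and 37.6 against 33.4 and 33.2.

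Genes of slow fibres and of precursor cells were mixed. Of the 5 further slow-fibre genes 2 had both cKO CLT libraries above both Ctrl CLT libraries and 1 had both below, and of the 8 genes of satellite cells and myoblasts 4 lay above and 0 below. Over all rows with a read, 33.8% had both above, so counts this small are no result about these lists. Chosen after their values were seen, *Casq2*, the slow and cardiac calcium store, had 3.47 and 2.77 RPKM in Ctrl CLT, against 6.38 and 6.26 in cKO CLT, and *Pax3*, an early muscle and neural crest factor, had 0.283 and 0.175 against 1.1 and 0.938. *Atp2a2*, the calcium pump SERCA2 of slow fibres, heart and most other cells, had the lowest fold change of the list at -1.20, with 136 and 157 RPKM in Ctrl CLT, 64.3 and 61.8 in cKO CLT and 44.9 to 52.2 in CLH. *Tpm3*, a tropomyosin of slow fibres and many other cells, had 74.5 and 79.7 against 82.4 and 81.6. *Myl2* and *Myl3*, the slow and cardiac light chains, were at 0.377 RPKM or less in every library. *Pax7*, the factor of satellite cells (the stem cells of muscle), had no read in CLH or Ctrl CLT 2, and was at 0.1 and 0.0515 RPKM in cKO CLT beside 0.0080 in Ctrl CLT 1. *Myf5*, a factor of early myoblasts, was lower in CLT than in CLH, with 0.0492 and 0.253 (Ctrl CLT) and 0.0342 and 0.0704 (cKO CLT) against 0.327 to 0.714. *Mef2c*, a factor of muscle and other cells, had 3.13 and 9.64 (Ctrl CLT) and 4.10 and 3.5 (cKO CLT), and *Chodl*, a membrane lectin, had 3.43 and 0.743 against 2.21 and 1.93.

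At the triad, the junction where the membrane meets the calcium store, 13 of 15 further genes were above 0 in CLT. *Fkbp1a*, which binds the release channel and is made by all cells, had 99.9 and 99.1 RPKM in Ctrl CLT, against 120.4 and 112 in cKO CLT. *Stac3*, which couples the voltage sensor to release, went the other way, with 17.0 and 20.3 against 8.27 and 7.05, and its level in CLH was 15.6 to 18.9. *Sgcb* and *Dysf*, membrane proteins that are not restricted to muscle, were also lower in cKO CLT, at 11 and 14.7 against 7.48 and 6.54 and at 6.63 and 5.64 against 3.1 and 3.09. At the nerve-muscle synapse *Chrnb1*, an acetylcholine receptor subunit, had 2.16 and 1.15 against 3.17 and 3.89, and *Ache*, which breaks acetylcholine down, had 0.939 and 0.138 against 2.22 and 3.01. Between the regions of mice labelled cKO, 56 of the 68 further genes tested passed as higher and 8 as lower (*Mypn*, *Tpm3*, *Stac3*, *Cacna2d1*, *Phka1*, *Sgcb*, *Dysf* and *Mef2c*). Over all genes tested, 28.9% passed as higher and 45.1% as lower in that comparison. In the interaction 18 passed as higher and 3 as lower (*Atp2a2*, *Stac3* and *Dysf*), beside 8.05% and 9.58% of all genes tested. In CLH and between the regions of Ctrl mice none passed. Since 12 of the 68 were in these fits only through the cKO CLT libraries, the counts are no support.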

How the data were processed

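The samples were 8 RNA-seq libraries of the incisor cervical loop, 2 for each of Ctrl and cKO in CLH and in CLT, grouped by their labels. The authors trimmed the reads with Trim Galore 0.4.3.1, aligned them to mm10 with STAR 2.6.0b-1, counted them per gene with featureCounts 1.6.3 and deposited RPKM values, 1 column per library. The strand setting and annotation are not given in the sources used here, so genes that overlap on opposite strands, and near-identical paralogs such as the myosin chains, may share reads. From the RPKM and gene length whole reads were recovered (tolerance 0.02), which gave the read numbers and the depth.

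Here log2(RPKM + 1) was fitted with limma 3.58.1 (R 4.3.3, with a variance trend, tested on simulated data) on the 4 libraries of each comparison, over the 14148 genes that reached 1 RPKM in 2 or more libraries, and all p-values are two-sided and were Benjamini-Hochberg adjusted over these genes with a threshold of 0.05. The difference between regions was an interaction term over 8 libraries. Exact permutation of 2 libraries against 2 gives no p below 0.333 and was not used. Folds against a library with no read use a floor of 3 reads in that library. The 40 genes, the role lists, the marker lists and the further muscle genes were chosen with earlier results of these data known. All 40 genes are given in every library, and of the further genes those with the highest mean RPKM in each list (2 of each), the highest and the lowest fold change, and *Pax7*, *Myf5*, *Myl2* and *Myl3*. Alternatives were other pseudocounts, filters, scalings and fits, voom on the recovered reads, and each library left out in turn.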

Additional observations from a re-analysis of the deposited data

Results flagged for a closer look

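An interaction term in limma tested whether the difference between libraries labelled cKO and Ctrl was not the same in CLT and CLH, and it passed as higher for 7 of the 36 fitted genes, beside 8.05% of all genes tested as higher and 9.58% as lower. On the log2(RPKM + 1) scale the difference in CLT exceeded that in CLH by 2.25 for *Ldb3*, 2.18 for *Mylk2*, 1.61 for *Ryr1*, 1.59 for *Neb*, 1.52 for *Cacna1s*, 1.49 for *Myf6* and 1.35 for *Ttn*. In each of the 7 both cKO CLT libraries lay above both Ctrl CLT libraries, as in 33.8% of all rows with a read. *Ttn* and *Myf6* reached the filter on low values only through the cKO CLT libraries. The 7 became 0 by voom, 1 with the replicate number as a block and 0 without any one of the 6 libraries other than Ctrl CLT, and 35 and 34 without Ctrl CLT 1 and Ctrl CLT 2. The genes were listed with their levels in these libraries known, so these values are no independent evidence.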

How the results depend on the processing

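The number of the 40 genes that passed in CLT was 0 in the fit reported, 31 with all 8 libraries in 1 fit and 27 with the replicate number as a block, and it ranged from 0 to 35 with a library left out. Over all genes tested in CLT, 11 higher and 237 lower became 3352 and 2831 with all 8 libraries in 1 fit, 888 and 856 with the replicate block and 0 and 32 by voom. For the further muscle genes in CLT the numbers were 56, 27 and 0 to 63 in the same order. Between the regions of Ctrl mice, 1 of the 40 and 4 of the further genes passed with all 8 libraries in 1 fit, and 0 to 36 and 0 to 52 with a library left out. In the interaction the 7 became 0 (pseudocount 0.1), 1 (pseudocount 0.5), 3 (filter on mean RPKM), 1 (replicate block) and 0 (voom). The same-numbered libraries were not shown to pair, since their deviations correlated between -0.19 and 0.31. With the numbers crossed as a block in CLT 0 of the 40 passed. For the crossed numbers, the Ctrl regions and the interaction, the share of all genes passing under each setting is not given here. Those counts are therefore no result about the muscle genes. Between the regions of mice labelled cKO the median of 3.51 became 4.692 (pseudocount 0.1), 3.896 (pseudocount 0.5), 3.683 (median-of-ratios scaling), 5.362 (voom) and 5.382 (ratio of group means), and in Ctrl mice the ratio of group means gave 3.104. *Tnnc1* in CLT ranged from -0.128 without Ctrl CLT 2 to 0.444 without Ctrl CLT 1, the only reversal among the 40 genes. Over the 4 adult chains *Myh4* took 55.3% in Ctrl CLT 1 and 55% in cKO CLT, *Myh1* 38.5%, 60.2% in Ctrl CLT 2 and 39.2%, and *Myh2* 5.8% in cKO CLT, and over *Myh1*, *Myh2* and *Myh4* alone *Myh4* took 55.4% in Ctrl CLT 1. The cause was not tested for any of these changes, except that fewer chains in the sum raise each share. With 2 libraries in a group and 0 to 3 reads for several genes, small differences were not detectable.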
